A study of Mus musculus with 7 samples.

Results

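The genes described here are 33 transcripts that mark T cells and natural killer (NK) cells, or that all leukocytes share, in RNA from inflamed mouse prostate. They were chosen by gene symbol from textbook knowledge of these cells, but with earlier results of these data known. Counts over them, set below against all genes, are therefore not blind to these data. The files held 30 of the 33 among 16019 genes in all. Trac, Trbc1 and Trbc2, the constant regions of the T cell receptor chains, were not analysed here. The samples came from mice with experimental autoimmune prostatitis (EAP), an inflammation of the gland raised by immunisation, which both groups carried. In 4 libraries the mice had received LIT927, a compound known to neutralise CXCL12, the chemokine ligand of CXCR4, at 25 mg/kg per day (replicates 1 to 4). In the other 3 they had received methyl-β-cyclodextrin, the solvent, which is the vehicle group (replicates 1, 3 and 4). Injections were intraperitoneal and lasted 14 days in both groups. The labels give neither strain nor age, and nothing in them ties a library to its own mouse. P-values therefore reflect how much these libraries vary, which can include technical variation.

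T cells recognise antigen through a receptor whose CD3 and zeta subunits pass the signal to the kinases Lck and Zap70 and the adaptor Lat. CD4 and CD8 are the coreceptors that separate helper from cytotoxic T cells, CD28 and ICOS add a second signal, and CTLA-4 restrains it. NK cells and cytotoxic T cells kill through perforin and granzymes. In autoimmune prostatitis T cells directed at prostate antigens enter the gland, and CXCR4 is among the receptors that guide leukocytes into tissue.

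Transcripts of T and NK cells were low in these libraries, with lower means in the LIT927 group, though no single gene passed the test. All 30 genes had a lower mean in the LIT927 group, where 46.5% of all genes did. The median difference over the 30 was -0.39 in log2(FPKM + 1), LIT927 minus vehicle, against 0.02 over all genes. FPKM, the deposited unit, are fragments scaled to the length of the gene and the size of the library. In limma's test, fitted over all genes on log2(FPKM + 1), 0 of the 30 passed a Benjamini-Hochberg adjusted p of 0.05 (0% of all genes did), and each had an adjusted p of 0.998. At an unadjusted p under 0.05, 16 of the 30 were lower, against 2.96% of all genes, and 0 were higher, against 0.718%. In 7 of the 30 every LIT927 library lay below every vehicle library, against 2.12% of all genes. These were Cd3d, Cd3e, Zap70, Il2rb, Il2rg, Il7r and Ptprc. In 0 of the 30 did every LIT927 library lie above every vehicle library, against 1.08% of all genes. In RNA from whole tissue, fewer cells of a type and less RNA per cell cannot be told apart.

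The same 30 genes were also set against other scalings. After median-of-ratios scaling, 30 of 30 had a lower mean (48.1% of all genes), 11 had an unadjusted p under 0.05 and were lower (5.51%), 8 had separate groups (4.99%) and 0 passed after adjustment (0%). With voom in limma on whole fragments recovered from the FPKM, the numbers were 30 (46.3%), 12 (5.74%), 8 (4.69%) and 0 (0%). The median log2 fold change over the 30, which carries no pseudocount of 1, was -1.65 by voom, against 0.00 over all genes. Over all genes limma called 0 at an adjusted p of 0.05 and 589 at an unadjusted p under 0.05, and voom called 0 and 1357.

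The 7 libraries were even in depth, with 32023785 to 35240765 recovered fragments, but not in tissue make-up. Seminal vesicle secretory genes took 40.0%, 50.9%, 37.4% and 28.9% of all FPKM in LIT927 replicates 1 to 4, and 11.4%, 40.6% and 67.4% in vehicle replicates 1, 3 and 4. The seminal vesicle transcript Svs1 stood at 11100 FPKM in LIT927 replicate 3 and at 12000 and 25400 FPKM in vehicle replicates 3 and 4. It stood at 38.8 to 243 FPKM in the remaining 4 libraries. Upk1a, which encodes a uroplakin of the urothelium, reached 253 FPKM in LIT927 replicate 3, 172 FPKM in vehicle replicate 3 and at most 10.1 FPKM elsewhere. These markers were chosen after their values were seen, and their part in the results was not tested except where a value is given below.

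Few fragments stood behind most of the 30 genes. Of 210 values (30 genes in 7 libraries), 73 rested on under 10 fragments, and 18 genes had a median under 10 fragments over the LIT927 libraries. Ptprc and Coro1a, the genes shared by all leukocytes, were the deepest, at 86 to 228 and 130 to 370 fragments in LIT927 libraries and 263 to 639 and 345 to 1010 in vehicle libraries. Only 15 of the 30 reached 1 FPKM in any library. The 95% intervals given for differences are limma's and reflect the spread between libraries, while the limits given for a count of 0 cover counting error only.

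**Figure D1:**
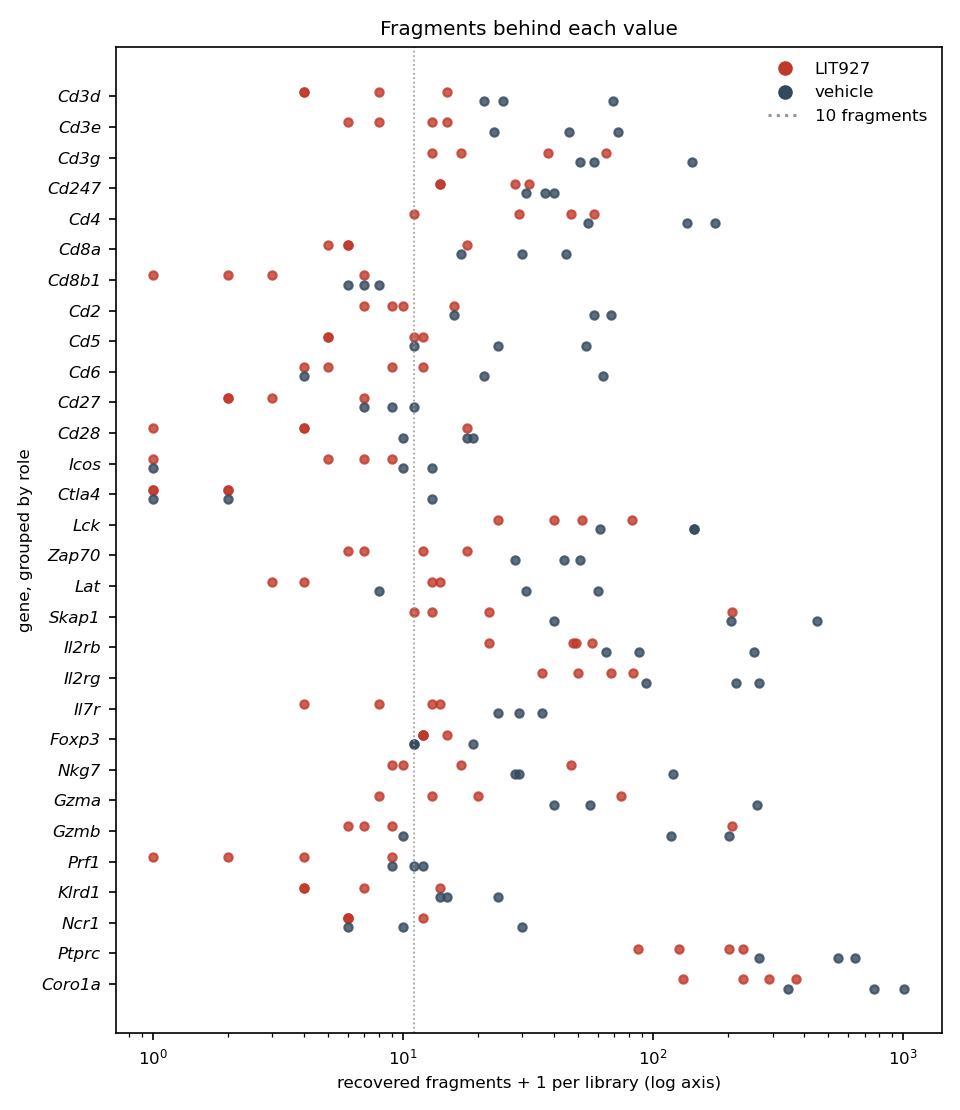
Recovered fragments (plus 1, log axis) behind each of the 30 genes, 1 point per library, LIT927 in red and vehicle in dark blue, with a dotted line at 10 fragments. Ptprc and Coro1a lie far to the right of the line in every library, while Ctla4, Cd8b1 and Icos lie mostly to its left.

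The CD3 subunits Cd3d, Cd3e and Cd3g lie side by side on chromosome 9 (mm10; Cd3g 44969572 to 44980431, minus strand; Cd3d 44981786 to 44987339, plus strand; Cd3e 44998740 to 45009627, minus strand). Cd3e was at 0.104, 0.146, 0.298 and 0.235 FPKM in LIT927 replicates 1 to 4, and at 0.912, 0.444 and 1.37 FPKM in vehicle replicates 1, 3 and 4. All 4 LIT927 libraries lay below all 3 vehicle libraries, with the narrowest gap between LIT927 replicate 3 and vehicle replicate 3. LIT927 minus vehicle came to -0.65 in log2(FPKM + 1), the scale of all differences given for single genes (SE 0.16, 95% interval -1.03 to -0.27). Cd3d was at 0.0607, 0.283, 0.0618 and 0.133 FPKM with LIT927, against 0.393, 0.469 and 1.27 FPKM with vehicle, on 3 to 14 and 20 to 68 fragments. Its groups did not overlap either, and the difference was -0.56 (SE 0.17, 95% interval -0.96 to -0.16). Cd3g was at 0.359, 1.11, 1.95 and 0.449 FPKM with LIT927, against 1.65, 1.44 and 3.93 FPKM with vehicle. Here LIT927 replicate 3 exceeded vehicle replicates 1 and 3, so the groups overlapped (difference -0.76, SE 0.36, 95% interval -1.60 to 0.07). Cd247, the zeta chain, averaged 0.0906 ± 0.0395 FPKM with LIT927 (SD, n = 4) and 0.146 ± 0.0168 FPKM with vehicle (SD, n = 3). Its exons overlap those of Pou2f1 on the other strand, and no source used here gives the strand setting of the counting, so fragments of the pair cannot be told apart.

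The promoters of Cd3d and Cd3e, whose groups did not overlap, and of the receptor-proximal kinase gene Zap70 follow because these genes gave the lowest p among the members of the CD3 complex and proximal signalling; the table held promoters for 21 of the 30 genes. Each is the run of 250 bases that ends just before the RefSeq transcript start (build GRCm38.p6), written 5′ to 3′ on the gene's strand, with matches to searched motifs in capitals. The motifs, searched on both strands, were AGGAAG (ETS type), TGTGGT (RUNX), TATAAA (the core of a promoter's start signal) and TGANTCA (AP-1).
Cd3d, chr9:44981536-44981785, plus strand: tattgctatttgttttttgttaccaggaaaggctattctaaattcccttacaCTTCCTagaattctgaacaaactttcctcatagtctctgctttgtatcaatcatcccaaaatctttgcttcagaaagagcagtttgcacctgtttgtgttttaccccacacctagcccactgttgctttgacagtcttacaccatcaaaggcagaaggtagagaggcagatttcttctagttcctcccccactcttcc
Cd3e, chr9:45009612-45009861, minus strand: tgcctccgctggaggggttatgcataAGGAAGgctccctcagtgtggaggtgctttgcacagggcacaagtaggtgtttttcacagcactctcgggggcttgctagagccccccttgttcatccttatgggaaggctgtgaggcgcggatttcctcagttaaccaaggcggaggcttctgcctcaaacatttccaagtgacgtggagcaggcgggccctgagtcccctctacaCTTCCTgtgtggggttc
Zap70, chr1:36761548-36761797, plus strand: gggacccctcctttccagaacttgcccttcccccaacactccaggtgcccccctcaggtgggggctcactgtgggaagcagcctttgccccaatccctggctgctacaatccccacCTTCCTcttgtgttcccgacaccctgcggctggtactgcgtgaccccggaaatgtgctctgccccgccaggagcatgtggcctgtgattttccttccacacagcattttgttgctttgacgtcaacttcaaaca
Matches to AGGAAG or its reverse complement numbered 1 in Cd3d, 2 in Cd3e and 1 in Zap70, and those to the other 3 motifs 0. AGGAAG was found in the first listed promoter of 13 of 21 member genes and in 29.5% of 32851 promoters of the same length. The corresponding values were 7 of 21 and 14.0% for TGTGGT, 2 of 21 and 12.4% for TATAAA, and 1 of 21 and 6.75% for TGANTCA. A match describes the letters only.

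Among the genes of proximal signalling, Zap70 (chromosome 1, 36761798 to 36782818, plus strand), the kinase that docks on phosphorylated CD3 and zeta chains, was at 0.0513, 0.0615, 0.177 and 0.106 FPKM with LIT927 and at 0.428, 0.267 and 0.475 FPKM with vehicle. It rested on 5 to 17 and 27 to 50 fragments, the groups did not overlap, and the difference was -0.34 (SE 0.07, 95% interval -0.51 to -0.17). It had the smallest p of the 30 genes. Lck, the kinase that acts ahead of Zap70, was at 0.679, 0.519, 0.312 and 1.01 FPKM with LIT927, against 1.86, 0.771 and 1.77 FPKM with vehicle. LIT927 replicate 4 lay above vehicle replicate 3, while vehicle replicates 1 and 4 exceeded every LIT927 library (difference -0.58, SE 0.22, 95% interval -1.11 to -0.06). Lat, the membrane adaptor phosphorylated by Zap70, was at 0.0584, 0.234, 0.0397 and 0.237 FPKM with LIT927, against 0.567, 0.132 and 1.06 FPKM with vehicle. Its lowest vehicle library, replicate 3, lay among the LIT927 values (difference -0.44, SE 0.19, 95% interval -0.88 to 0.00).

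Skap1 (chromosome 11, 96464593 to 96759130, plus strand), an adaptor that links the receptor to integrins, was at 0.138, 0.291, 2.90 and 0.156 FPKM with LIT927, against 0.524, 2.71 and 5.81 FPKM with vehicle. The 3 libraries with high Svs1 held 203 to 453 fragments of Skap1 and the other 4 held 10 to 39, whichever treatment they had. The difference was -1.07 (SE 0.61, 95% interval -2.48 to 0.33).

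**Figure D2:**
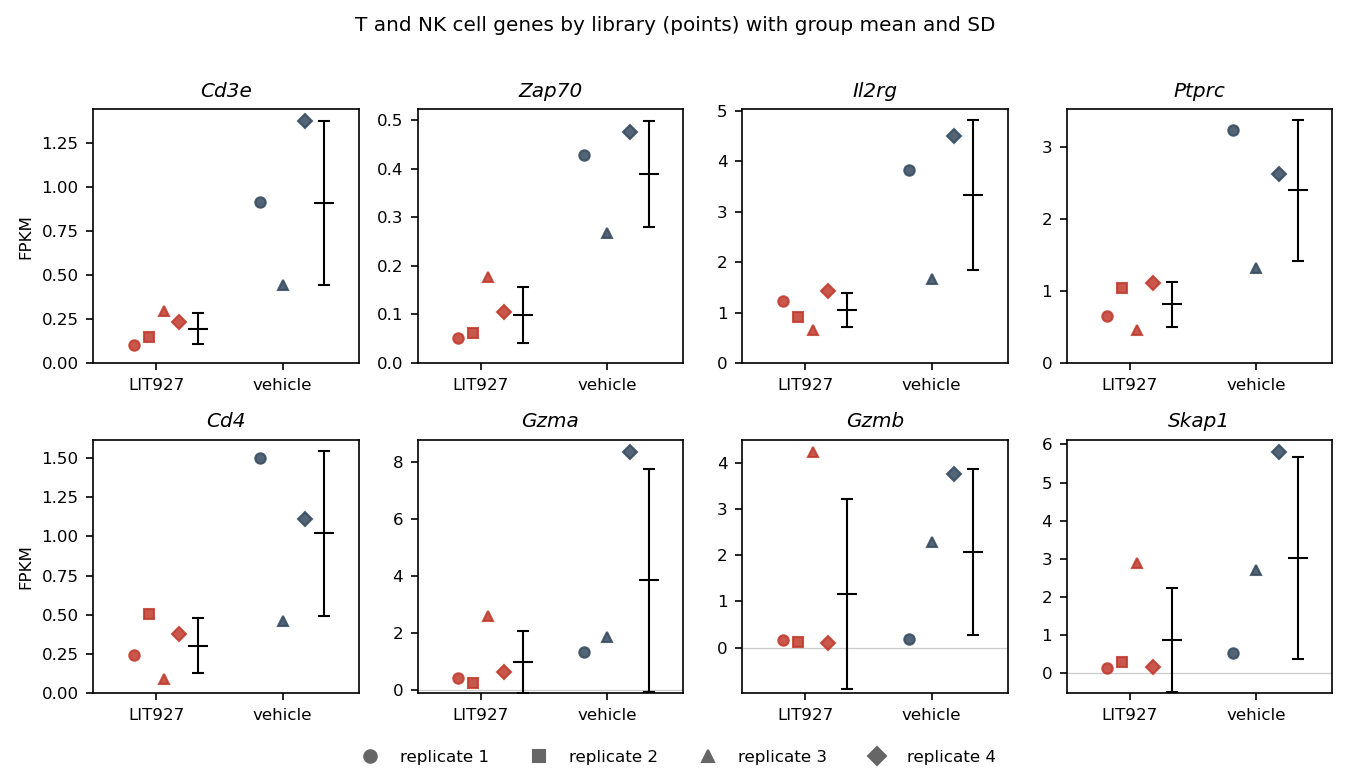
FPKM of 8 genes, 1 panel each, in LIT927 (left, red, n = 4) and vehicle (right, dark blue, n = 3) libraries, with point shape giving the replicate and the black bar the group mean and SD. Cd3e, Zap70, Il2rg and Ptprc show no overlap between groups, while LIT927 replicate 3 reaches 4.24 FPKM for Gzmb and 2.90 FPKM for Skap1.

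The coreceptor gene Cd4 was at 0.247, 0.503, 0.0898 and 0.380 FPKM with LIT927, against 1.5, 0.460 and 1.11 FPKM with vehicle. Only LIT927 replicate 2 lay above the lowest vehicle library (difference -0.61, SE 0.20, 95% interval -1.06 to -0.15). Cd4 is carried by helper T cells and, more weakly, by other leukocytes. Cd8a, carried by cytotoxic T cells and some dendritic cells, was at 0.0489, 0.0489, 0.169 and 0.0367 FPKM with LIT927, against 0.152, 0.274 and 0.398 FPKM with vehicle (difference -0.24, SE 0.08, 95% interval -0.42 to -0.06). Only LIT927 replicate 3 reached above vehicle replicate 1; it held 17 fragments of Cd8a and the other LIT927 libraries 4 or 5. Cd8b1, the beta chain of CD8, gave 0 to 6 fragments in LIT927 libraries and 5 to 7 in vehicle libraries. At 0 fragments in LIT927 replicate 3, a level of up to 0.0631 FPKM (3 fragments) remained possible.

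Of the surface proteins that bind partners on other cells, Cd2, an adhesion receptor of T and NK cells, was at 0.214, 0.401, 0.163 and 0.226 FPKM with LIT927, against 1.74, 0.387 and 1.41 FPKM with vehicle. LIT927 replicate 2 exceeded vehicle replicate 3 by a small margin, both on 15 fragments (difference -0.75, SE 0.22, 95% interval -1.27 to -0.22). Cd5, a receptor that dampens T cell signalling, was at 0.0582, 0.160, 0.0592 and 0.136 FPKM with LIT927, against 0.324, 0.140 and 0.713 FPKM with vehicle (difference -0.32, SE 0.13, 95% interval -0.61 to -0.02). Cd6, its close relative, was at 0.0403, 0.111, 0.0308 and 0.0755 FPKM with LIT927, against 0.195, 0.0292 and 0.578 FPKM with vehicle. For Cd6 vehicle replicate 3 was the lowest library of all 7, on 3 fragments, and vehicle replicate 4 the highest, on 62.

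Genes of costimulation and its restraint were close to the limit of detection. Cd27, a costimulatory receptor of the TNF receptor family, was at 0.0171, 0.103, 0.0174 and 0.0321 FPKM with LIT927, against 0.0996, 0.132 and 0.158 FPKM with vehicle, on 1 to 6 and 6 to 10 fragments (difference -0.12, SE 0.05, 95% interval -0.22 to -0.01). Cd28 gave 0 to 17 fragments in LIT927 libraries and 9 to 18 in vehicle libraries. Icos gave 0 to 8 and 0 to 12, and Ctla4 gave 0 or 1 in every library except vehicle replicate 1, which held 12. The mean of Ctla4, 0.00697 ± 0.00805 FPKM with LIT927 (SD, n = 4) and 0.0603 ± 0.0931 FPKM with vehicle (SD, n = 3), was thus set by 1 vehicle library. For these 4 genes the differences ran from -0.12 to -0.02.

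Foxp3, the transcription factor that defines regulatory T cells, was at 0.109, 0.0857, 0.0872 and 0.0803 FPKM with LIT927, and at 0.136, 0.0752 and 0.0721 FPKM with vehicle, on 11 to 14 and 10 to 18 fragments. The LIT927 mean was 95.9% of the vehicle mean, with a 95% interval of the difference from -0.10 to 0.09 in log2(FPKM + 1). The groups overlapped, and on this scale so low a level leaves little room for a difference. Exons of Foxp3 overlap those of Flicr on the same strand and of Ppp1r3f and Ccdc22 on the other, so not all of these fragments need come from Foxp3.

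For the cytokine receptor genes, 3 of 3 had every LIT927 library below every vehicle library, against 2.12% of all genes. Il2rg (chromosome X, 101264378 to 101268255, minus strand), the common gamma chain used by the receptors for IL-2, IL-7, IL-15 and other cytokines, was at 1.24, 0.905, 0.658 and 1.42 FPKM with LIT927, against 3.83, 1.66 and 4.51 FPKM with vehicle. The difference was -1.02 (SE 0.30, 95% interval -1.72 to -0.33). Il2rb, the beta chain shared by the receptors for IL-2 and IL-15, was at 0.143, 0.326, 0.387 and 0.299 FPKM with LIT927, against 0.573, 0.420 and 1.58 FPKM with vehicle (difference -0.48, SE 0.20, 95% interval -0.95 to -0.01). The gap between LIT927 replicate 3 and vehicle replicate 3 was narrow, at 56 and 64 fragments. Il7r, the IL-7 receptor of naive and memory T cells and of innate lymphoid cells, was at 0.0956, 0.0515, 0.0225 and 0.0827 FPKM with LIT927, against 0.164, 0.248 and 0.191 FPKM with vehicle (difference -0.18, SE 0.05, 95% interval -0.29 to -0.07). Il7r was the only one of the 30 whose highest library was vehicle replicate 3.

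**Figure D3:**
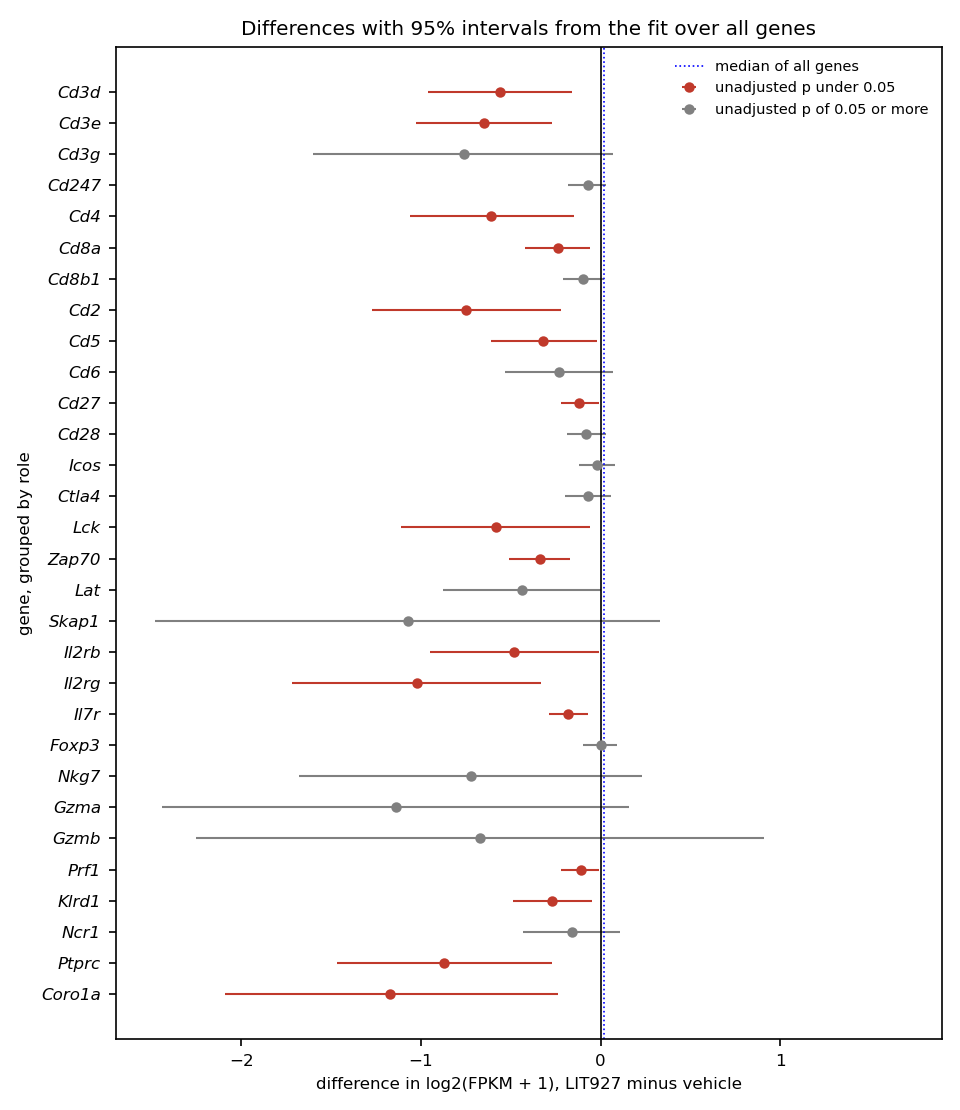
Difference in log2(FPKM + 1), LIT927 minus vehicle, with its 95% interval from limma, for the 30 genes grouped by role; red marks an unadjusted p under 0.05, and the dotted line the median of all genes (0.02). All points lie at or left of 0, and Skap1, Gzma and Gzmb have the widest intervals.

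Of the 6 genes of killing and of NK cells, 6 had a lower mean (46.5% of all genes) and 0 had groups that did not overlap. Over all genes, 2.12% had every LIT927 library below every vehicle library and 1.08% had every one above. Gzma (chromosome 13, 113093825 to 113100981, minus strand), a granule protease of NK and cytotoxic T cells, was at 0.417, 0.243, 2.58 and 0.619 FPKM with LIT927, against 1.31, 1.84 and 8.36 FPKM with vehicle. Gzmb (chromosome 14, 56258838 to 56262260, minus strand), the protease that cleaves caspases in target cells, was at 0.162, 0.121, 4.24 and 0.0948 FPKM with LIT927, against 0.177, 2.29 and 3.75 FPKM with vehicle. Its highest library was thus LIT927 replicate 3, on 206 fragments, while vehicle replicate 1 held 9. The differences were -1.14 (SE 0.56, 95% interval -2.44 to 0.16) for Gzma and -0.67 (SE 0.68, 95% interval -2.25 to 0.91) for Gzmb. Gzmb lies among related granzyme genes, and no source used here says how fragments that match several of them were counted.

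The promoters of these 2 genes are shown because both genes were higher in all 3 libraries with high Svs1 than in the others. They follow the same conventions as those of the CD3 genes.
Gzma, chr13:113100982-113101231, minus strand: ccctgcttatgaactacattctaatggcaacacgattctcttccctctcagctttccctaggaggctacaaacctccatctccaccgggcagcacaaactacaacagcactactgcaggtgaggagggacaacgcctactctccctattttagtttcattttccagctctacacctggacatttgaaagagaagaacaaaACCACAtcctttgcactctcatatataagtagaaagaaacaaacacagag
Gzmb, chr14:56262335-56262584, minus strand: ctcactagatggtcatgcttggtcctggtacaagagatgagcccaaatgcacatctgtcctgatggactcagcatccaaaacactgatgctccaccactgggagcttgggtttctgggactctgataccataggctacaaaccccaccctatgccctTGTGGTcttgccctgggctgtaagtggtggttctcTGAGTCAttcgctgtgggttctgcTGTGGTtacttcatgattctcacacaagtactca
Neither holds AGGAAG on either strand; TGTGGT or its reverse complement occurs 1 time in Gzma and 2 times in Gzmb, and TGANTCA 1 time in Gzmb.

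Nkg7, a granule membrane protein of NK and cytotoxic T cells, was at 0.339, 0.602, 1.76 and 0.282 FPKM with LIT927, against 1.02, 0.981 and 4.15 FPKM with vehicle (difference -0.72, SE 0.41, 95% interval -1.68 to 0.23). LIT927 replicate 3 again exceeded vehicle replicates 1 and 3. Klrd1, which encodes CD94, the partner chain of the NKG2 receptors, was at 0.316, 0.146, 0.0743 and 0.0685 FPKM with LIT927, against 0.331, 0.305 and 0.518 FPKM with vehicle (difference -0.27, SE 0.09, 95% interval -0.49 to -0.05). Ncr1, the NK cell receptor NKp46, was at 0.229, 0.104, 0.106 and 0.0974 FPKM with LIT927, against 0.182, 0.1 and 0.558 FPKM with vehicle, so that only vehicle replicate 4 stood above the LIT927 range. Prf1, the pore-forming protein perforin, was at 0.109, 0.0136, 0 and 0.0383 FPKM with LIT927, against 0.145, 0.105 and 0.126 FPKM with vehicle (difference -0.11, SE 0.05, 95% interval -0.22 to -0.01). In LIT927 replicate 3, Prf1 had 0 fragments, which allows up to 0.0416 FPKM, while Gzmb was at its highest.

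Ptprc (chromosome 1, 138062861 to 138175708, minus strand), the leukocyte phosphatase CD45, was at 0.657, 1.04, 0.456 and 1.11 FPKM with LIT927, against 3.23, 1.32 and 2.63 FPKM with vehicle. No LIT927 library reached the lowest vehicle library (difference -0.87, SE 0.26, 95% interval -1.47 to -0.27). Coro1a, an actin regulator of leukocytes, was at 3.26, 4.17, 1.9 and 4.98 FPKM with LIT927, against 14.1, 4.78 and 10.2 FPKM with vehicle. LIT927 replicate 4 lay just above vehicle replicate 3 (difference -1.17, SE 0.40, 95% interval -2.09 to -0.24). These genes are shared by all leukocytes and so do not mark T or NK cells alone.

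Vehicle replicate 4 held the highest value of 19 of the 30 genes, although only 2.57% of all genes were highest there, and vehicle replicate 1 held the highest value of 9 (47.0% of all genes). After median-of-ratios scaling, vehicle replicate 4 was highest for 29 of the 30 (14.0% of all genes). The lowest value was in LIT927 replicate 3 for 12 of the 30, a share near that of all genes (31.8%), and in LIT927 replicate 1 for 10 (4.54% of all genes). Several of these 10 were ties in fragments. Cd3d, Cd247, Cd5 and Cd27 had equal fragments in LIT927 replicates 1 and 3, and Ctla4 had 0 in both and in vehicle replicate 3. Without vehicle replicate 4 the median difference over the 30 genes was -0.22, against -0.12 over all genes. Then 6 of the 30 were lower at an unadjusted p under 0.05 (8.02% of all genes), 30 had a lower mean (73.7% of all genes) and 7 had separate groups (16.8% of all genes). With that library left out and the rest scaled, the median was -0.15, against 0.00 over all genes, and 27 of 30 means were lower (47.2% of all genes). Leaving out a library changes how often groups separate for any gene. The count of the 30 with separate groups was 12 without LIT927 replicate 2 (2.5% of all genes), 13 without LIT927 replicate 3 (3.29%) and 19 without vehicle replicate 3 (4.05%).

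**Figure D4:**
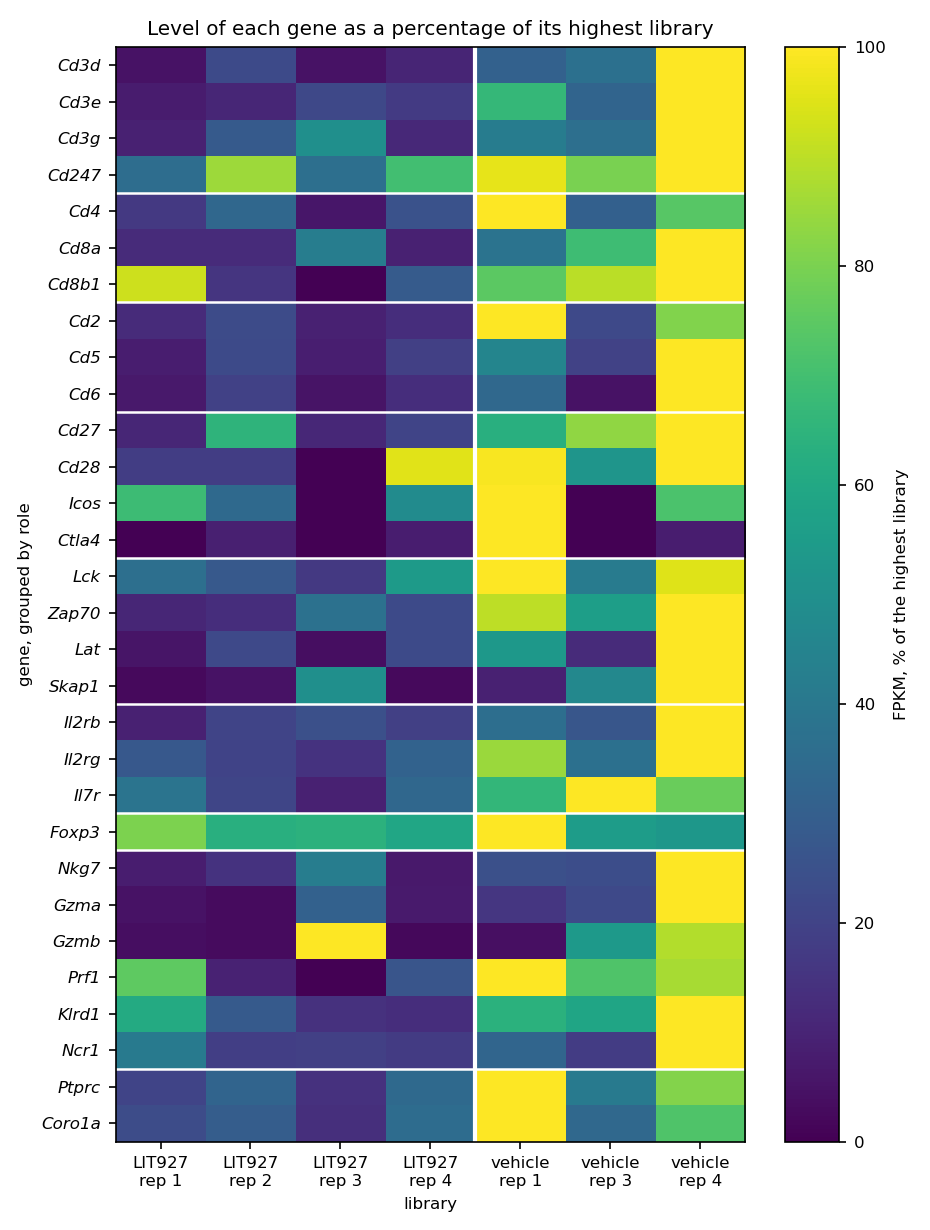
FPKM of each of the 30 genes as a percentage of its highest library, by library (LIT927 left of the white line, vehicle right), with genes grouped by role. The column of vehicle replicate 4 is at 100% for 19 genes, and LIT927 replicate 3 is high for Gzmb but low for Cd4, Ptprc and Coro1a.

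Svs1, 1 marker of tissue make-up, and treatment were then read side by side. Other markers divided the libraries otherwise, so the split by Svs1 does not hold tissue make-up constant. Vehicle replicate 4 had Upk1a at 2.64 FPKM, against 253 and 172 FPKM in LIT927 and vehicle replicates 3. Its vas deferens marker Akr1b7 was at 1600 FPKM, against 15.9 and 84.5 FPKM there. Seminal vesicle genes took 50.9% of FPKM in LIT927 replicate 2, with low Svs1, and 37.4% in LIT927 replicate 3. Of the 30 genes 4 were higher in all 3 libraries with Svs1 above 1000 FPKM than in all 4 others, namely Cd8a, Skap1, Gzma and Gzmb, where 1.40% of all genes were. Among the libraries with high Svs1, LIT927 replicate 3 lay below both vehicle replicates 3 and 4 for 20 of the 30 genes (35.7% of all genes). Among those with low Svs1, LIT927 replicates 1, 2 and 4 all lay below vehicle replicate 1 for 27 of the 30 (58.3% of all genes). Both held for 18 of the 30 (22.4% of all genes), including Cd3d, Cd3e, Cd4, Cd8a, Cd2, Lck, Zap70, Il2rg and Ptprc. Within each kind of library a group had as few as 1 library, so these counts carry no test. With high Svs1 as a term in limma's fit, the median difference over the 30 was -0.32, against -0.07 over all genes, and 0 passed after adjustment. In the same fit 13 of the 30 were lower at an unadjusted p under 0.05, against 15.2% of all genes, a background well above the 2.96% of the fit without that term. In that fit the difference for Cd3e was -0.622, that for Zap70 -0.320 and that for Ptprc -1.07, while that for Gzmb turned to 0.159.

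**Figure D5:**
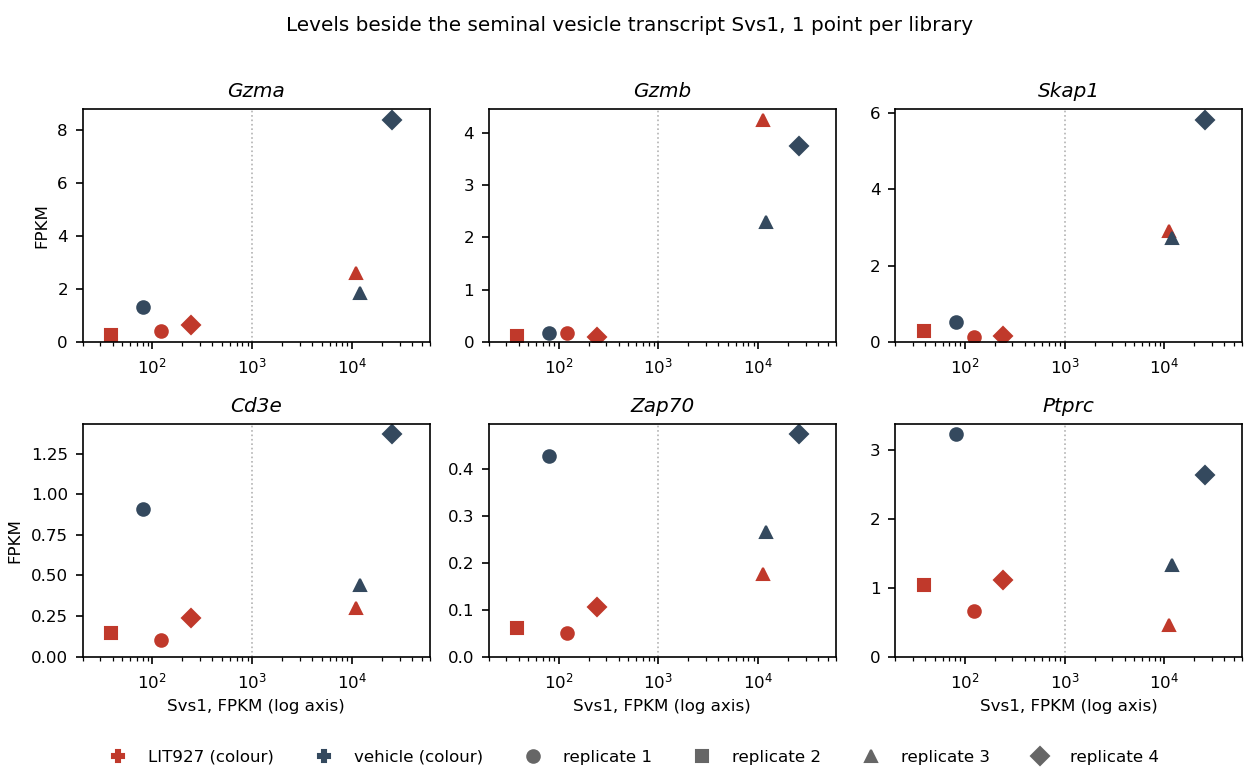
FPKM of 6 genes (vertical axis) beside FPKM of Svs1 (horizontal log axis), 1 point per library, LIT927 in red and vehicle in dark blue, with shapes for replicates and a dotted line at 1000 FPKM. Gzmb and Skap1 are high in the 3 libraries right of the line, including LIT927 replicate 3, while Ptprc and Cd3e are highest in vehicle libraries on either side.

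Ratios within a library compare transcripts without the library's overall scale, and they are given as values with no test. They do not measure the balance among cells. The ratio of Cd8a to Cd4 was 0.198, 0.0972, 1.88 and 0.0964 in LIT927 replicates 1 to 4, and 0.101, 0.595 and 0.359 in vehicle replicates 1, 3 and 4. It was 0.359 to 1.88 in the 3 libraries with high Svs1 and 0.0964 to 0.198 in the other 4. The value of 1.88 rested on 17 fragments of Cd8a and 10 of Cd4, in a library with 0 fragments of Cd8b1. In the other LIT927 libraries the ratio rested on 4 or 5 fragments of Cd8a. The ratio of Foxp3 to Cd4 was 0.442, 0.170, 0.972 and 0.211 with LIT927, against 0.0909, 0.164 and 0.0650 with vehicle, so every LIT927 library was higher. The narrowest gap was between LIT927 replicate 2 (0.170) and vehicle replicate 3 (0.164), on 11 and 10 fragments of Foxp3 and 57 and 54 of Cd4. This ratio follows from the level Foxp3 and lower Cd4 above, and rests on 10 to 18 fragments of Foxp3. Given the exon overlaps above, not all of these need come from Foxp3. The ratio of Gzma to Gzmb was 2.57, 2.0, 0.608 and 6.52 with LIT927, against 7.44, 0.807 and 2.23 with vehicle. The sum of Cd3d, Cd3e and Cd3g over Ptprc was 0.798, 1.47, 5.06 and 0.733 with LIT927, against 0.916, 1.78 and 2.50 with vehicle. The groups overlapped, with the highest value in LIT927 replicate 3, where Cd3g gave 64 of the CD3 fragments against 3 for Cd3d and 14 for Cd3e. With Cd3g left out, the ratio was 0.252, 0.412, 0.788 and 0.33 with LIT927, against 0.404, 0.690 and 1.0 with vehicle. The groups still overlapped, but the highest value was then in vehicle replicate 4.

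Further genes of these pathways, outside the 30, gave the following counts, with 0 called in any list (limma, adjusted over all genes). Of 22 genes of T cell signalling, 18 had a lower mean (46.5% of all genes) and 9 were lower at an unadjusted p under 0.05 (2.96%). In 9 of the 22 every LIT927 library lay below every vehicle library (2.12% of all genes). Lcp2 (SLP-76), the adaptor that Zap70 phosphorylates with Lat, was at 0.161, 0.287, 0.189 and 0.443 FPKM with LIT927 and at 1.0, 0.473 and 0.821 FPKM with vehicle. Nfatc2, a transcription factor switched on by calcium after receptor signalling, averaged 0.418 ± 0.121 FPKM with LIT927 (SD, n = 4) and 1.04 ± 0.379 FPKM with vehicle (SD, n = 3). Neither gene's groups overlapped (differences -0.47 and -0.52, SE 0.13 and 0.14).

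Of 13 T cell transcription factor genes, 6 had a lower mean, a share near that of all genes (46.5%), and 7 did not. With LIT927 the 7 averaged 1.84 (Tcf7) to 52.1 FPKM (Gata3), and the 6 averaged 0.0312 (Bcl11b) to 1.76 FPKM (Ets1). Cd3e averaged 0.196 FPKM in that group. Which cells of the tissue gave these transcripts was not tested, so the count is not one of T cells alone. At an unadjusted p under 0.05 in limma, 2 were lower (2.96% of all genes) and 1 was higher (0.718%). Tbx21 (T-bet), which directs type 1 helper and NK cells, averaged 0.0619 ± 0.0188 FPKM with LIT927 and 0.229 ± 0.111 FPKM with vehicle (SD, n = 4 and 3).

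Of 8 measured effector cytokine genes, 7 had a lower mean (46.5% of all genes). Ltb (lymphotoxin beta) averaged 0.942 ± 0.165 FPKM with LIT927 and 2.05 ± 0.873 FPKM with vehicle (SD, n = 4 and 3; difference -0.61, SE 0.23), without overlap. Ifng, the type 1 cytokine, was listed at 0 in LIT927 replicates 1 to 3 and vehicle replicate 3, at 0.0237 FPKM in LIT927 replicate 4, and at 0.0491 and 0.281 FPKM in vehicle replicates 1 and 4. Of 10 checkpoint genes, 8 had a lower mean (46.5% of all genes) and 4 were lower at an unadjusted p under 0.05 (2.96%). Havcr2 (TIM-3), also carried by myeloid cells, averaged 0.190 ± 0.0666 FPKM with LIT927 and 0.510 ± 0.111 FPKM with vehicle (SD, n = 4 and 3; difference -0.34, SE 0.08). Tigit, an inhibitory receptor of T and NK cells, averaged 0.0204 ± 0.0319 and 0.118 ± 0.0424 FPKM in these groups (difference -0.13, SE 0.04).

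Of 21 NK and innate lymphoid genes, 17 had a lower mean (46.5% of all genes) and 3 were lower at an unadjusted p under 0.05 (2.96%). Il18rap, a subunit of the IL-18 receptor through which NK and type 1 T cells are stimulated, was at 0.0918, 0.0612, 0.0249 and 0.0975 FPKM with LIT927 and at 0.321, 0.230 and 0.340 FPKM with vehicle. Of all genes in these pathway lists it had the smallest p, with a difference of -0.28 (SE 0.05) and an adjusted p of 0.998. Klrc1 (NKG2A), the partner of CD94, averaged 0.0187 ± 0.0147 FPKM with LIT927 and 0.1 ± 0.0435 FPKM with vehicle (SD, n = 4 and 3; difference -0.11, SE 0.04). Of 13 homing genes, 12 had a lower mean (46.5% of all genes) and 7 were lower at an unadjusted p under 0.05 (2.96%). Klf2, a factor of naive T cells that endothelium expresses too, was at 5.88, 3.93, 2.09 and 6.78 FPKM with LIT927 and at 13.1, 9.38 and 9.92 FPKM with vehicle (difference -1.13, SE 0.35). Ccr4, a chemokine receptor of type 2 helper and regulatory T cells, averaged 0.0165 ± 0.0159 FPKM with LIT927 and 0.246 ± 0.161 FPKM with vehicle (SD, n = 4 and 3; difference -0.28, SE 0.08). For γδ T cells, Cd163l1 and Sox13 were measured. Their group means were 0.0209 and 5.10 FPKM with LIT927 and 0.0632 and 5.32 FPKM with vehicle. The differences were -0.06 (SE 0.04) and 0.01 (SE 0.28). Sox13 was at 3.09 FPKM or more in every library, while Cd3e reached at most 1.37 FPKM. Whether γδ T cells gave the Sox13 transcripts was not tested.

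Other leukocyte and stromal markers stood beside these values. For comparison, 46.5% of all genes had a lower mean and 2.96% were lower at an unadjusted p under 0.05 in limma. In 2.12% of all genes every LIT927 library lay below every vehicle library. Macrophage and monocyte markers had a lower mean in 9 of 10 genes, 5 of them lower at an unadjusted p under 0.05, with a summed level of 55.8 to 155 FPKM with LIT927 and 150 to 404 FPKM with vehicle. B cell markers had a lower mean in 6 of 6, at sums of 0.171 to 2.32 FPKM with LIT927 and 0.527 to 6.47 FPKM with vehicle, and 0 of the 6 had an unadjusted p under 0.05. The B cell sum was 0.527 FPKM in vehicle replicate 4, where the T and NK genes were highest at a sum of 57.2 FPKM, and 6.47 FPKM in vehicle replicate 1. Dendritic cell markers had a lower mean in 8 of 8, and 2 were lower at an unadjusted p under 0.05. Neutrophil markers had a lower mean in 5 of 6. At an unadjusted p under 0.05, 4 of the 6 neutrophil markers were lower, and 4 had every LIT927 library below every vehicle library, shares above those of the T and NK genes (16 and 7 of 30). The smallest unadjusted p of all 16019 genes was that of the neutrophil granule gene Ngp, with an adjusted p of 0.998 in limma. Fibroblast (6 of 6), endothelial (6 of 6) and smooth muscle markers (5 of 5) were lower in the mean too, with medians of -0.80, -0.81 and -0.74. Vehicle replicate 1 had the highest sum of each of these 3 lists, whereas in vehicle replicate 4 the unscaled sums lay within the LIT927 range (79.5, 18.5 and 2250 FPKM, against 59.4 to 210, 3.86 to 34.0 and 693 to 4520 FPKM with LIT927). They also lay within that range after median-of-ratios scaling, but higher in it. The smooth muscle sum of vehicle replicate 4 was then 3380, against 852 to 3910 with LIT927, and its endothelial sum was 27.8, against 4.75 to 29.4 with LIT927. Its scaled fibroblast sum was 120, against 73.1 to 181 with LIT927. Mast cell markers had a lower mean in 4 of 5 and plasma cell markers in 2 of 3. In both lists 0 genes had an unadjusted p under 0.05. Of 4 lymph node markers, 2 had a lower mean and 2 did not. Ccl21a, a chemokine of lymph node stroma and lymphatic vessels, was at 3.30 to 23.0 FPKM with LIT927 and 14.8 to 56.7 FPKM with vehicle. Cr2, a marker of follicular dendritic and B cells, was at most 0.403 FPKM with LIT927 and 0.155 FPKM with vehicle. Differences were -1.76 for Ccl21a, -0.30 for Ccl19, 0.15 for Cr2 and 0.18 for Glycam1. The part of these cells in the values of the 30 genes was not tested.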

How the data were processed

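RNA was sequenced from mouse prostate in 7 libraries, 4 with LIT927 and 3 with vehicle by the treatment in the titles. Total RNA was extracted with TRIzol and a VAHTS Universal library kit was used, as the labels' protocols state. Tools named in the submitters' processing notes are fastp, HISAT2 and HTSeq, with the build mm10, but no source used here gives versions, settings, annotation or strand. The authors deposited FPKM, a unit worked out from the values, because the headers say only expression. In such units a library rich in secretory transcripts shows lower values for its other genes.

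Whole fragments were recovered from the FPKM steps for all 16019 genes, within 0.01 fragments, summed to 32023785 to 35240765 per library, and served for depth and 1 alternative. No pair of libraries held identical values. Log2(FPKM + 1) values of all genes in all libraries were fitted with limma 3.58.1 (R 4.3.3; trended prior variance, no covariate), with p-values adjusted by Benjamini-Hochberg over all genes. This scale understates changes of low genes. Alternatives were a pseudocount of 0.1, at least 1 FPKM in 3 libraries, median-of-ratios scaling, voom with TMM factors, a replicate block and leaving out libraries. The code was tested on simulated data. In that simulation only genes of higher mean level were changed, and only upward. It therefore does not cover falls in low genes, such as many of the members. Values in every library are given for genes that reach 0.5 FPKM or have an unadjusted p under 0.05, and the 2 genes of smallest p for each further list, except 1 gene that is not reported here. The members and lists were chosen with earlier results of these data known. Coordinates come from GENCODE M21 (mm10) and promoters from RefSeq. Tables and figures used Python 3.11.15, NumPy 2.4.6, pandas 2.3.3 and matplotlib 3.10.9.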

Additional observations from a re-analysis of the deposited data

Results flagged for a closer look

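In the 4 LIT927 libraries, 1 library stood far from the other 3 for 5 of the 30 genes, by the gap to its neighbour as a share of the range. For normally distributed values, chance alone gives such a gap in about 1 in 20 groups. Whether these FPKM, many of them on few fragments, meet that condition was not tested. The share of all genes with such a gap was not worked out, so the count of 5 has no background beside it. LIT927 replicate 3 was the high one for Gzmb (share 0.984; 4.24 FPKM against 0.0948 to 0.162 FPKM), Skap1 (0.945; 2.90 against 0.138 to 0.291), Cd8a (0.908; 0.169 against 0.0367 to 0.0489) and Gzma (0.839; 2.58 against 0.243 to 0.619). It is also the only LIT927 library with high Svs1, at 11100 FPKM. LIT927 replicate 1 was the high one for Ncr1 (0.936; 0.229 FPKM against 0.0974 to 0.106 FPKM), on 11 fragments against 5 in each of the others.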

How the results depend on the processing

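Over 16 alternatives, of which 3 were added after seeing the data (both scaled sets with libraries left out, and Svs1 as a term), limma called 0 genes and 0 members in each. The lowest adjusted p of any member was 0.119. Of 459 recomputed member differences, 453 kept their sign and 6 turned: Icos (0.00284), Ctla4 (0.000438) and Foxp3 (0.0225) without vehicle replicate 1, Foxp3 (0.00334) and Ncr1 (0.0175) with scaling and without vehicle replicate 4, and Gzmb (0.159) with Svs1 as a term. Without any 1 library, the difference was -0.0573 to 0.00284 for Icos, -0.111 to 0.000438 for Ctla4 and -0.0193 to 0.0225 for Foxp3. The median difference of -0.39 was -1.15 with a pseudocount of 0.1, -1.65 by voom and -0.87 with the filter, which left 9 members, 9 of them lower in the mean and 2 with separate groups. It was -0.22 to -0.48 without any 1 library. With scaling it was -0.15 without vehicle replicate 4 and -0.66 without both replicates 3. The count of members with separate groups, 7, was 7 to 19 without any 1 library. It was 7 without vehicle replicate 4 (16.8% of all genes) and 19 without vehicle replicate 3 (4.05%). It was 25 without both replicates 3 (5.2%) and 23 with scaling as well (13.0%). Means were lower in 27 to 30 members without any 1 library (28.1% to 73.7% of all genes). With the replicate number as a block, 0 members were called, 17 were lower at an unadjusted p under 0.05 (3.21% of all genes; 16 and 2.96% without the block) and the median difference was -0.41. Same-numbered libraries deviated together for numbers 1 and 3 but not for 4 (r = 0.565, 0.7 and -0.238). The labels do not say what the numbers mean, so whether they pair the samples is not known. The causes of these shifts were not tested, beyond fewer genes or libraries. Depth limits all genes under about 10 fragments per library.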
